A study of Rattus norvegicus with 12 samples.

Results

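The genes described here encode the perineuronal net, the dense lattice of extracellular matrix that surrounds some neurons of the cerebral cortex. They were chosen by gene symbol and comprise the 4 lectican proteoglycans (Acan, Bcan, Ncan and Vcan), the link proteins Hapln1 and Hapln4, and the tenascins Tnr and Tnc. All 8 were present among the 17268 genes of the deposited table, of which 15895 were counted in 1 library or more, and all 8 passed the filter on low counts in every comparison. The 12 RNA sequencing libraries came from the cerebral cortex of adult male Sprague Dawley rats, 3 libraries in each of 4 groups. The labels do not state that each library was a different rat, so p-values measure the spread between these libraries only. Sham rats went through the carotid surgery and received no clot. In Model rats the middle cerebral artery was blocked by an injected blood clot, an embolic stroke, with no treatment after it. The rt-PA rats had the same stroke and 10 mg/kg of the thrombolytic drug rt-PA (recombinant tissue plasminogen activator) by tail vein at 6 h, and the rt-PA+Acu rats received this injection and also acupuncture at the Shuigou and Neiguan points at 2 h. No library of a stroke with acupuncture alone was analysed, so the acupuncture was only measured together with rt-PA.

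Perineuronal nets form around neurons, most often inhibitory interneurons that contain parvalbumin, as the cortex matures. Their backbone is hyaluronan, a long sugar chain made at the cell surface. Lecticans bind hyaluronan with one end, link proteins lock that bond, and tenascin-R cross-links the other ends of the lecticans. Aggrecan (Acan) is the lectican most closely tied to the nets, whereas brevican (Bcan) and neurocan (Ncan) are also spread through the looser matrix between cells and versican (Vcan) is rich around nodes of Ranvier. Several of these genes are used by glia as well as neurons, and Ncan, Vcan and tenascin-C (Tnc) are known as matrix genes of injured or developing brain.

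Expression is given as CPM, the counts of a gene relative to the library size after TMM scaling in edgeR, with the mean ± SD of 3 libraries. The libraries held 11678450 to 13616935 counts each, so that 3 counts were worth 0.208 to 0.262 CPM. Levels are compared between groups for 1 gene at a time and not between genes, because gene lengths were not available. Fold changes are log2 values with their SE from edgeR's quasi-likelihood test, fitted over all genes of the 6 libraries compared, with Benjamini-Hochberg adjustment. A gene is called changed when its adjusted p was under 0.05 and its absolute log2 fold change over 1. The markers of cortical neurons were detected in all 12 libraries, and so were markers of striatal neurons, whose summed level was 368 to 967 CPM in Sham and 155 to 289 CPM elsewhere. Model replicate 3 stood with the Sham libraries at Rpl39, a ribosomal protein gene (142 counts, against 105 to 151 in Sham and 488 to 990 in all remaining libraries), and fits with a term for this split were run for each result. Within groups the term varies only in Model, between replicate 3 and replicates 1 and 2. In these fits Model versus Sham is set by Model replicate 3 alone. The rt-PA and rt-PA+Acu differences from Sham shift by the gap between Model replicate 3 and Model replicates 1 and 2. What these fits keep or lose against Sham therefore rests on 1 library. In tissue of mixed cells, fewer cells of a type and less RNA per cell cannot be told apart.

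The stroke split the net genes into a group that rose and a group that fell. In Model versus Sham, 6 of the 8 genes were called and the libraries of the groups did not overlap for these 6. Acan, Ncan and Tnc rose (3 of 8, against 9.43% of all genes tested), and Bcan, Hapln1 and Tnr fell (3 of 8, against 12% of all genes). Over 12884 genes tested, 21.5% were called and 63.6% had groups that did not overlap. The median absolute log2 fold change was 2.18 over the 8 net genes and 0.48 over all genes. Vcan and Hapln4 were not called.

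Promoter sequences of the genes that moved are shown so that the genes of each direction can be compared. These are the 100 bases just before the RefSeq start (rat build GRCr8), written 5′ to 3′ on the strand of the gene. Capitals mark matches on either strand to the TATA box core TATAA or the GC box GGGCGG. The genes that rose were Acan (chr1:142390851-142390950, plus strand), Ncan (chr16:19335807-19335906, plus strand) and Tnc (chr5:82476132-82476231, minus strand):
Acan: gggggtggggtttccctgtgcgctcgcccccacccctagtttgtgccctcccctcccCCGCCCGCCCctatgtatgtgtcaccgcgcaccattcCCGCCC
Ncan: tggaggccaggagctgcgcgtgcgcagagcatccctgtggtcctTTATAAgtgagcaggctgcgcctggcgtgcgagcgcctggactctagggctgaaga
Tnc: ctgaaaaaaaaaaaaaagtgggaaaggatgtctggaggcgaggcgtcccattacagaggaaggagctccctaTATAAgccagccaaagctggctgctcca
The genes that fell were Bcan (chr2:175765315-175765414, minus strand), Hapln1 (chr2:22366867-22366966, plus strand) and Tnr (chr13:74624926-74625025, plus strand):
Bcan: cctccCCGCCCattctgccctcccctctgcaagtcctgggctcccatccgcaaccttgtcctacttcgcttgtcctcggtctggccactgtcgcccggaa
Hapln1: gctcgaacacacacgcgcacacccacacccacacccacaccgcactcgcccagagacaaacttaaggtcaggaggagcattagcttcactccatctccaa
Tnr: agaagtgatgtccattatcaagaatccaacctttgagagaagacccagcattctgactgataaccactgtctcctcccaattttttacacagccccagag

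Over the full 250 bases before the start, 7 motifs were searched on both strands in the 9 windows of the 8 net genes. TATAA was found in Ncan, Tnc, Tnr, Hapln4 and the second of the Vcan windows, and in 24.0% of all 33469 RefSeq windows of this length. The GC box was found in Acan, Bcan, Ncan, Vcan and Tnc, and in 30.5% of all windows, and Hapln1 held neither. The other 5 motifs had no match in any window of the net genes: the AP-1 motif TGANTCA (6.34% of all windows), the STAT motif TTCNNNGAA (7.67%), the NF-kB motif GGGNNTTTCC (1.3%), the cyclic AMP element TGACGTCA (1.59%) and CANGTG, a narrow form of the E box (38.4%). The wider E box CANNTG was not searched and does occur in these windows, as CAGATG in Ncan. GGGNNTTTCC is likewise a narrow form of the NF-kB motif. The wider form GGGRNNYYCC (R is A or G, Y is C or T) was not searched. It does occur in the Acan window, as GGGGTTTCCC. The TATA core and the overlapping reverse match count as 1 site in TTATAA. Both motifs occurred in genes that rose and in genes that fell. The GC content of the windows ran from 36.8% in Tnr to 73.6% in Acan, with a median of 51.2% over all windows. A match of letters is a description and does not show that a factor binds there.

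**Figure D1:**
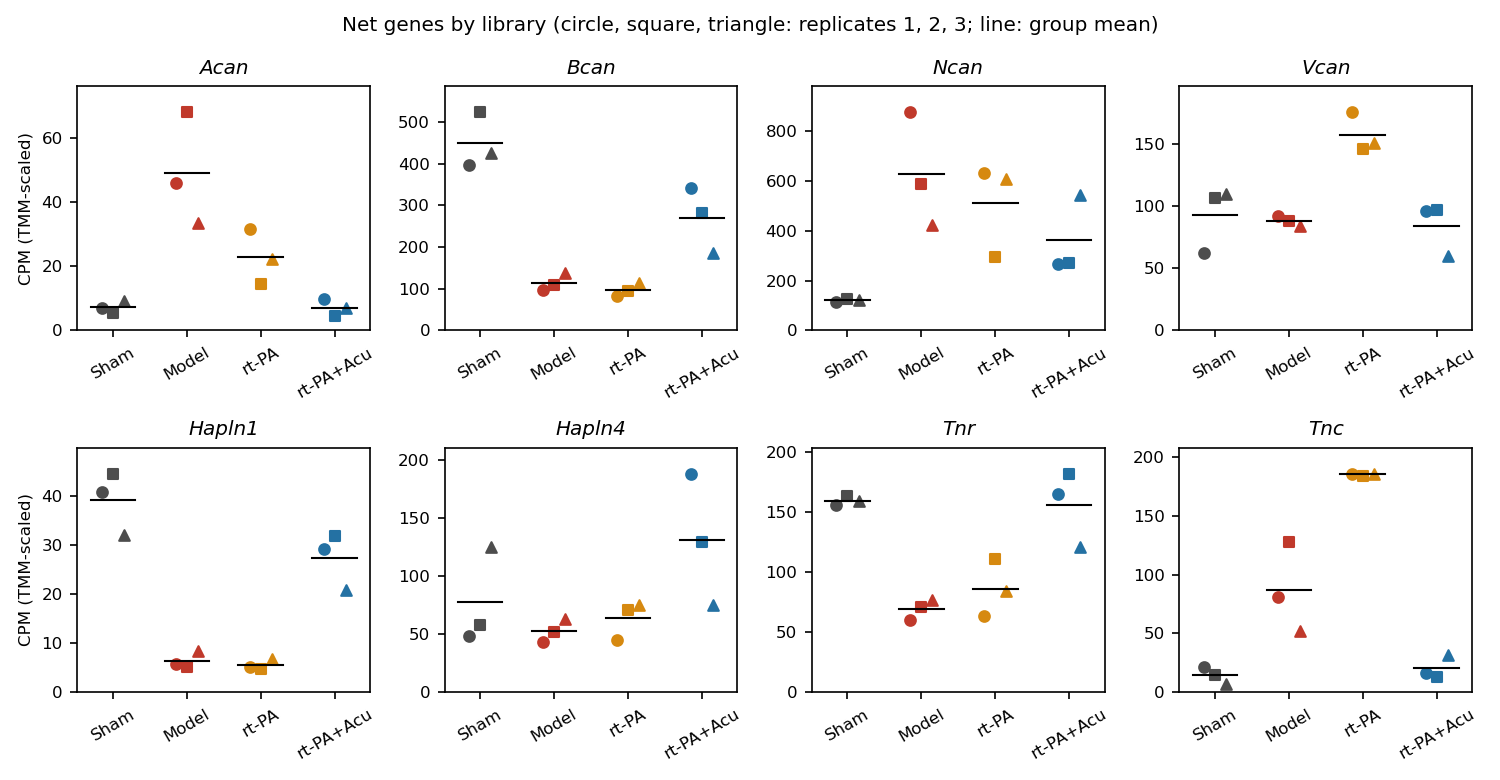
CPM (TMM-scaled, linear axes from 0) of the 8 net genes in each of the 12 libraries, with the group mean as a line and a marker shape for each replicate number. Bcan, Hapln1 and Tnr were low in Model and rt-PA and higher in rt-PA+Acu, Acan and Tnc ran the other way, and Ncan lay above all Sham libraries in the 9 other libraries.

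Among the lecticans, aggrecan, whose core protein carries the most sugar chains of the family, had 6.93, 5.43 and 9.25 CPM in Sham and 45.8, 67.9 and 33.3 CPM in Model. Acan therefore rose from a mean of 7.2 ± 1.93 to 49.0 ± 17.5 CPM, a log2 fold change of 2.78 (SE 0.296, adjusted p = 0.000162). Neurocan, which is cleaved in the adult brain, had 115, 125 and 122 CPM in Sham and 874, 587 and 422 CPM in Model, a log2 fold change of 2.39 (SE 0.239, adjusted p = 0.000121). The lowest Model library stood above the highest Sham library for both genes, and Model replicate 3 was the lowest of the Model libraries for both.

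Brevican moved the opposite way. Bcan had 397, 524 and 427 CPM in Sham and 97.0, 109 and 138 CPM in Model, a log2 fold change of -1.97 (SE 0.154, adjusted p = 4.05e-05). Versican had 62.7, 107 and 110 CPM in Sham and 92.4, 88.6 and 84.2 CPM in Model, and the difference of -0.07 (SE 0.193, adjusted p = 0.782) took the opposite sign, at 0.0024, when libraries were scaled by their size alone. The Model libraries of Vcan lay inside the range of Sham. Thus, of the 4 lecticans, proteins of one family, 2 rose, 1 fell and 1 was not called after the stroke.

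For the link proteins, Hapln1, which stabilizes the bond of lecticans to hyaluronan, had 40.8, 44.6 and 32.1 CPM in Sham and 5.65, 5.08 and 8.34 CPM in Model. Its log2 fold change of -2.62 (SE 0.217, adjusted p = 5.02e-05) was the furthest fall of the 8 genes. Hapln4, a link protein of brainstem and cerebellar nets that also binds brevican, had 48.6, 58.0 and 125 CPM in Sham and 43.3, 51.5 and 63.1 CPM in Model (-0.55, SE 0.33, adjusted p = 0.19). Sham replicate 3 stood well above the other Sham libraries for Hapln4, and the groups overlapped.

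The tenascins also separated. Tenascin-R, the cross-linker of the net, had 156, 163 and 159 CPM in Sham and 60.2, 70.9 and 76.3 CPM in Model, a log2 fold change of -1.20 (SE 0.101, adjusted p = 5.63e-05). Tenascin-C, which shares the lectican-binding fold and is low in the adult cortex, had 21.3, 14.8 and 6.9 CPM in Sham and 80.5, 128 and 52.1 CPM in Model, a log2 fold change of 2.60 (SE 0.425, adjusted p = 0.00124). Each library of Model lay outside the range of Sham for both genes.

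All 6 calls of Model versus Sham were kept in each of the 14 other fits of a gene, which included fits without each library in turn. The fit with a term for the library split was among the 14. It sets Model replicate 3 alone against Sham, so it is no separate check of the other Model libraries. Across the 14 fits Acan lay between 2.21 and 2.99, Ncan between 1.80 and 2.61, Tnc between 1.85 and 2.99, Bcan between -2.12 and -1.71, Hapln1 between -2.85 and -2.23, and Tnr between -1.27 and -1.06.

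Markers of several cell types moved in the same comparison. All 5 tested markers of reactive astrocytes rose, and their summed level was 419 to 475 CPM in Sham and 3238 to 4827 CPM in Model. Of 6 astrocyte markers 5 fell (4631 to 5562 CPM in Sham, 1847 to 2199 CPM in Model), as did 4 of 6 cortical neuron markers (517 to 608 and 181 to 242 CPM), all 6 striatal neuron markers (368 to 967 and 156 to 248 CPM), 5 of 6 oligodendrocyte markers (11966 to 17905 and 1672 to 8503 CPM) and 3 of 6 markers of oligodendrocyte precursors (522 to 654 and 165 to 233 CPM). Of the 6 neuron markers only Rbfox3 was called, lower, with sums of 4754 to 5730 CPM in Sham and 4296 to 4962 CPM in Model. Slc17a7 (-0.87, adjusted p = 0.000159) and Syt1 (-0.44, adjusted p = 0.00328) were lower by the adjusted p alone. Snap25, the largest part of these sums (0.28, adjusted p = 0.0719), Nefl (0.10, adjusted p = 0.518) and Nefm (-0.26, adjusted p = 0.356) did not pass. None of the 5 parvalbumin interneuron markers tested was called, and their median log2 fold change was -0.51. Their sum was 554 to 591 CPM in Sham and 660 to 866 CPM in Model, with Gad1 (0.87, adjusted p = 0.000876) and Gad2 (0.90, adjusted p = 0.00237), enzymes of all GABA neurons, higher, while Kcnc1 (-0.61, adjusted p = 0.00575), Kcnc2 (-0.51, adjusted p = 0.00334) and Syt2 (-1.07, adjusted p = 0.0619) had values of the opposite sign. Of 7 myeloid markers, Cd68, Itgam and Ptprc rose (sums of 76.2 to 98.6 CPM in Sham and 168 to 264 CPM in Model), as did Kdr of 4 endothelial markers (109 to 154 and 187 to 344 CPM), and Rgs5 of 6 fibroblast and pericyte markers fell (159 to 220 and 67.0 to 109 CPM). The parvalbumin gene itself was not analysed here. No list had a marker at 0 in any library except the choroid plexus list, whose sum did not pass 68.9 CPM. The part of these shifts in the changes of the net genes was not tested.

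Thrombolysis alone moved no net gene past the call. In rt-PA versus Model, 0 of 8 net genes and 0 of 12941 genes (0%) were called by edgeR. At an unadjusted p under 0.05 there were 3 net genes, against 9.92% of all genes, and the same 3 had groups that did not overlap, against 15.9% of all genes. They were Acan, Tnc and Vcan. Acan had 31.6, 14.5 and 22.2 CPM in rt-PA, each below the lowest Model library of 33.3 CPM (log2 fold change -1.10, SE 0.332, adjusted p = 0.374). Tnc had 186, 184 and 186 CPM, each above the highest Model library of 128 CPM (1.10, SE 0.28, adjusted p = 0.334). Vcan had 176, 146 and 151 CPM, each above 92.4 CPM, the highest Model value (0.84, SE 0.104, adjusted p = 0.094).

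These 3 genes had the lowest adjusted p-values of the 8, in a comparison in which edgeR called nothing. DESeq2 called 82 genes, among them Acan (-1.11, adjusted p = 0.0446) and Tnc (1.09, adjusted p = 0.00956). For Vcan it gave an adjusted p of 1.72e-07 at a log2 fold change of 0.83, under the fold threshold. The 5 other net genes had log2 fold changes between -0.30 for Ncan and 0.32 for Tnr, with adjusted p-values from 0.656 to 0.854. Ncan had 632, 295 and 606 CPM in rt-PA, Bcan 82.4, 95.3 and 114 CPM, and Hapln1 5.2, 4.6 and 6.71 CPM, each with a range that overlapped that of Model. Of the marker lists, none had a called gene in this comparison. The sum of 7 myeloid markers was 168 to 264 CPM in Model and 254 to 528 CPM in rt-PA. The 6 fibroblast and pericyte markers had a median log2 fold change of 2.07 and sums of 67.0 to 109 CPM in Model and 111 to 311 CPM in rt-PA. Dcn (2.35, adjusted p = 0.366), Lum (2.31, adjusted p = 0.334), Col1a1 (2.11, adjusted p = 0.301) and Col1a2 (2.02, adjusted p = 0.348) did not overlap between the groups. Pdgfrb (0.71, adjusted p = 0.419) and Rgs5 (-0.20, adjusted p = 0.833) overlapped. These genes were named after their values were seen. The part of these markers in the values of Tnc and Vcan was not tested.

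Against Sham, the rt-PA libraries showed the split of the Model libraries. In rt-PA versus Sham, 5 of 8 net genes were called, against 22.6% of 13023 genes: Acan (1.64), Ncan (2.06) and Tnc (3.67) were higher, and Bcan (-2.23) and Hapln1 (-2.85) were lower. Tnr (-0.90, SE 0.183, adjusted p = 0.00403) and Vcan (0.74, SE 0.201, adjusted p = 0.0151) passed the adjusted p but not the fold threshold. Without rt-PA replicate 2, Tnr was called at -1.12. With the term for the library split, which rests on Model replicate 3, Acan was at 0.89 and Ncan at 1.28, and neither was called. This comparison shares the Sham libraries with Model versus Sham.

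**Figure D2:**
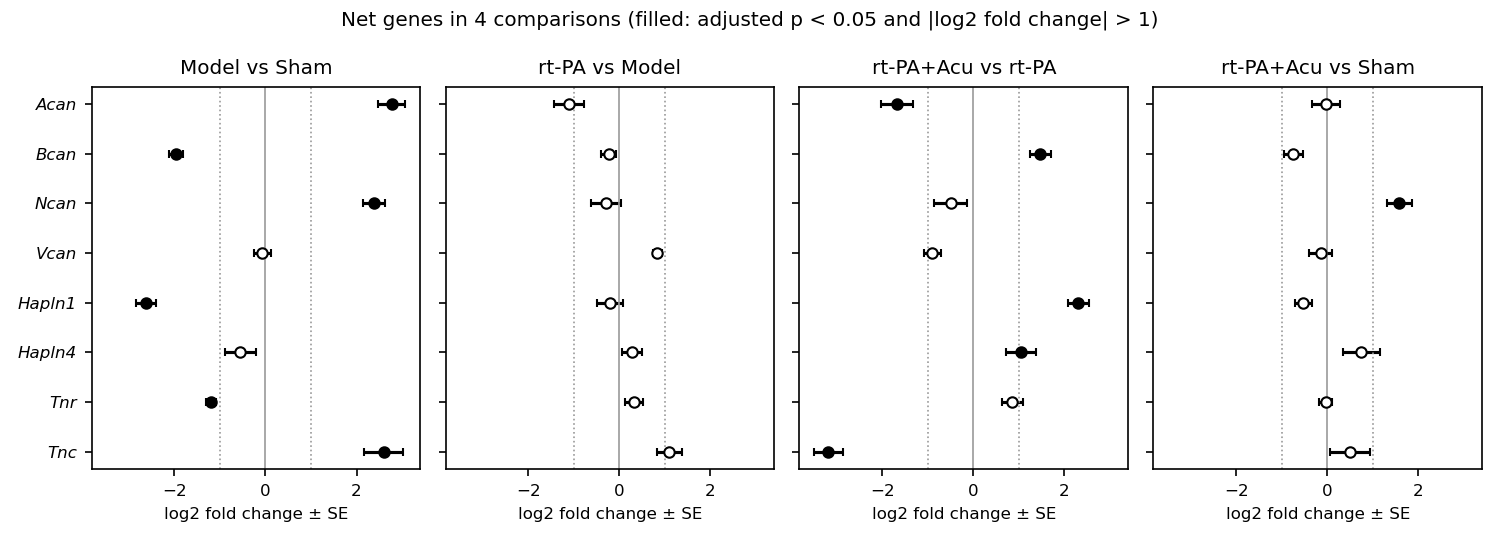
Log2 fold change ± SE of the 8 net genes in 4 comparisons by edgeR, 3 libraries a group. Filled circles were called (adjusted p under 0.05 and past the dotted lines at -1 and 1): 6 in Model versus Sham, 0 in rt-PA versus Model, 5 in rt-PA+Acu versus rt-PA and 1, Ncan, in rt-PA+Acu versus Sham.

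Bcan and Hapln1, which fell in Model, were higher with acupuncture added to rt-PA than with rt-PA alone, and Acan and Tnc, which rose in Model, were lower. Relative to rt-PA alone, 5 of 8 genes were called in rt-PA+Acu, against 15.3% of 12999 genes. Bcan, Hapln1 and Hapln4 were higher (3 of 8, against 7.17% of all genes) and Acan and Tnc were lower (2 of 8, against 8.16%). By adjusted p alone, 7 of 8 passed, against 34.8% of all genes, and the libraries did not overlap for these 7, against 51.1% of all genes. The median absolute log2 fold change was 1.26 over the net genes and 0.40 over all genes. Ncan was the gene that did not pass.

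Bcan had 342, 282 and 185 CPM in rt-PA+Acu, against 82.4, 95.3 and 114 CPM in rt-PA (log2 fold change 1.47, SE 0.231, adjusted p = 0.00441). Hapln1 had 29.2, 31.9 and 20.8 CPM, against at most 6.71 CPM in rt-PA (2.31, SE 0.228, adjusted p = 0.00118). Tnr had 165, 182 and 121 CPM, against 63.1, 111 and 84.5 CPM (0.86, SE 0.228, adjusted p = 0.0243). These are the 3 genes that fell in Model, and rt-PA+Acu replicate 3 was the lowest library of its group for all 3. Tnr passed the fold threshold without rt-PA replicate 2 (1.08) and without rt-PA+Acu replicate 3 (1.02).

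Tnc had 16.4, 13.1 and 31.4 CPM in rt-PA+Acu, against 184 to 186 CPM in rt-PA (log2 fold change -3.18, SE 0.309, adjusted p = 0.00118). Acan had 9.78, 4.63 and 6.87 CPM, all below the lowest rt-PA library of 14.5 CPM (-1.68, SE 0.356, adjusted p = 0.011). Vcan had 96.2, 97.2 and 60.1 CPM, all below the lowest rt-PA library of 146 CPM (-0.90, SE 0.191, adjusted p = 0.0112). Vcan missed the fold threshold here but passed it without rt-PA+Acu replicate 2 (-1.01) and with library size alone (-1.01).

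Hapln4 had 188, 129 and 75.1 CPM in rt-PA+Acu and 44.5, 70.8 and 74.7 CPM in rt-PA (1.04, SE 0.332, adjusted p = 0.0443). The groups touched, since 75.1 CPM is next to 74.7 CPM. The call was lost without rt-PA replicate 1 (0.84, adjusted p = 0.131), replicate 2 (1.13, adjusted p = 0.0732) or replicate 3 (1.18, adjusted p = 0.0755), without rt-PA+Acu replicate 1 (0.69, adjusted p = 0.129) or replicate 2 (1.05, adjusted p = 0.103), with library size alone (0.93) and with the replicate number as a block (0.98, adjusted p = 0.11).

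Ncan had 267, 271 and 544 CPM in rt-PA+Acu and 295 to 632 CPM in rt-PA (-0.50, SE 0.37, adjusted p = 0.324). Its groups overlapped through rt-PA+Acu replicate 3, whose Ncan was close to the mean of rt-PA, 511 ± 188 CPM. In rt-PA+Acu versus Model, which shares libraries with the comparison above, 6 of 8 net genes were called, against 14.5% of 12855 genes. Bcan (1.23), Hapln1 (2.10), Hapln4 (1.31) and Tnr (1.17) were higher, and Acan (-2.79) and Tnc (-2.09) lower. Ncan (-0.80, SE 0.347, adjusted p = 0.11) was called without rt-PA+Acu replicate 3 (-1.22, adjusted p = 0.0146). Hapln4 was no longer called without Model replicate 1 (1.19) or replicate 2 (1.28) or without rt-PA+Acu replicate 1 (0.96).

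The cell type markers differed in this comparison too. Of the reactive astrocyte markers, 3 of 5 (Timp1, Cd44 and Vim) were lower in rt-PA+Acu. Gfap (-0.15, adjusted p = 0.694) and Lcn2 (-0.35, adjusted p = 0.687) were not called. The list summed to 2330, 2291 and 4733 CPM in rt-PA+Acu against 3783 to 4394 CPM in rt-PA. Most of these sums was Gfap, with means of 2917 CPM in rt-PA+Acu and 3254 CPM in rt-PA. Astrocyte markers were higher for 4 of 6 (4458, 3937 and 3176 CPM, against 1625 to 2286 CPM), and cortical neuron markers for 4 of 6 (568, 651 and 369 CPM, against 167 to 221 CPM). All 7 myeloid markers were lower (71.1 to 117 CPM, against 254 to 528 CPM), as were 3 of 4 endothelial markers (72.0 to 81.9 CPM, against 231 to 344 CPM). Oligodendrocyte markers gave no call and spread from 3212 to 21103 CPM in rt-PA+Acu. Striatal neuron markers had 1 call in 6. Of 5 parvalbumin interneuron markers, Syt2 was called higher (1.38, adjusted p = 0.0233) and Kcnc1 passed the adjusted p alone (0.88, adjusted p = 0.0028). Kcnc2 (0.70, adjusted p = 0.0504) did not pass, and Gad1 (-0.29, adjusted p = 0.328) and Gad2 (-0.41, adjusted p = 0.152) had the opposite sign. The sums of this list were 708 to 911 CPM against 737 to 894 CPM in rt-PA. Of 6 fibroblast and pericyte markers, Dcn was lower and Rgs5 higher (117 to 174 CPM, against 111 to 311 CPM). Again the part of these shifts in the net genes was not tested, and rt-PA+Acu replicate 3 was the library nearest to the rt-PA group in the astrocyte, reactive astrocyte and cortical neuron sums as well as in Bcan, Hapln1, Ncan and Tnc.

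Relative to uninjured cortex, rt-PA+Acu differed in neurocan. In rt-PA+Acu versus Sham, 1 of 8 net genes was called, against 2.06% of 12775 genes, and 3 of 8 had groups that did not overlap, against 30.8% of all genes. Ncan had 267, 271 and 544 CPM against 115 to 125 CPM in Sham (log2 fold change 1.58, SE 0.272, adjusted p = 0.02). The call was lost without Sham replicate 1 (1.54, adjusted p = 0.0914), replicate 2 (1.60, adjusted p = 0.104) or replicate 3 (1.59, adjusted p = 0.0797). It was also lost with the term for the library split (0.79), which rests on Model replicate 3. Bcan (-0.74, SE 0.214, adjusted p = 0.0882) and Hapln1 (-0.53, SE 0.184, adjusted p = 0.137) stood below all Sham libraries without passing the test. Tnr (-0.03, SE 0.145), Acan (-0.02, SE 0.314), Vcan (-0.15, SE 0.246), Tnc (0.50, SE 0.436) and Hapln4 (0.75, SE 0.407) had adjusted p-values from 0.308 to 0.975, which does not show that they had returned to the Sham level. In this comparison 4 of 5 reactive astrocyte markers were higher and 5 of 6 striatal neuron markers were lower in rt-PA+Acu, and no marker of astrocytes or cortical neurons was called.

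Ordered by group mean, the genes fell into few patterns. Bcan and Hapln1 ran from Sham to rt-PA+Acu, Model and rt-PA, and the step that passed the test was that from rt-PA+Acu to Model (2.35 times for Bcan, adjusted p = 0.00697, and 4.29 times for Hapln1, adjusted p = 0.00161). Tnr ran from Sham, 159 ± 3.5 CPM, to rt-PA+Acu, 156 ± 31.5, rt-PA, 86.2 ± 24.0, and Model, 69.2 ± 8.19, and only the middle step passed (adjusted p = 0.0243). Tnc ran from rt-PA, 185 ± 1.09 CPM, to Model, 86.8 ± 38.2, rt-PA+Acu, 20.3 ± 9.76, and Sham, 14.3 ± 7.23, and the step from Model to rt-PA+Acu passed (adjusted p = 0.0077). Acan ran from Model to rt-PA, Sham and rt-PA+Acu, with the step from rt-PA, 22.8 ± 8.58 CPM, to Sham passing (adjusted p = 0.00281). Vcan was highest in rt-PA, 158 ± 16.4 CPM, above Sham, 93.2 ± 26.5 CPM (adjusted p = 0.0151), with no step passing among Sham, Model and rt-PA+Acu. Ncan passed only at its last step, from rt-PA+Acu, 361 ± 159 CPM, to Sham, 121 ± 5.18 CPM. No step passed for Hapln4, from 131 ± 56.3 CPM in rt-PA+Acu to 52.6 ± 9.96 CPM in Model.

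Ratios of counts within a library need no scaling between libraries. The ratio of Tnc to Tnr was 0.0435 to 0.137 in Sham, 0.683 to 1.8 in Model, 1.66 to 2.95 in rt-PA and 0.0718 to 0.26 in rt-PA+Acu. The ratio of Ncan to Bcan was 0.239 to 0.29 in Sham, 3.06 to 9.01 in Model, 3.09 to 7.67 in rt-PA and 0.78 to 2.94 in rt-PA+Acu. Both ratios were higher in every Model and rt-PA library than in any Sham library, and for Ncan to Bcan the rt-PA+Acu libraries fell between the Sham libraries and those of Model and rt-PA without touching either. The ratio of Acan to Bcan was 0.0104 to 0.0217 in Sham, 0.241 to 0.625 in Model, 0.152 to 0.384 in rt-PA and 0.0164 to 0.0371 in rt-PA+Acu.

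The ratio of Vcan to Bcan was 0.158 to 0.257 in Sham, 0.611 to 0.952 in Model, 1.32 to 2.14 in rt-PA and 0.281 to 0.345 in rt-PA+Acu, so that the 4 groups occupied 4 separate ranges. For the link proteins, Hapln1 to Hapln4 was 0.256 to 0.838 in Sham, 0.0987 to 0.132 in Model, 0.065 to 0.117 in rt-PA and 0.155 to 0.277 in rt-PA+Acu. The last range lay above Model and rt-PA and overlapped Sham through Sham replicate 3. These ratios compare counts, which also depend on gene length, so their change between groups and not their size is of use.

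**Figure D3:**
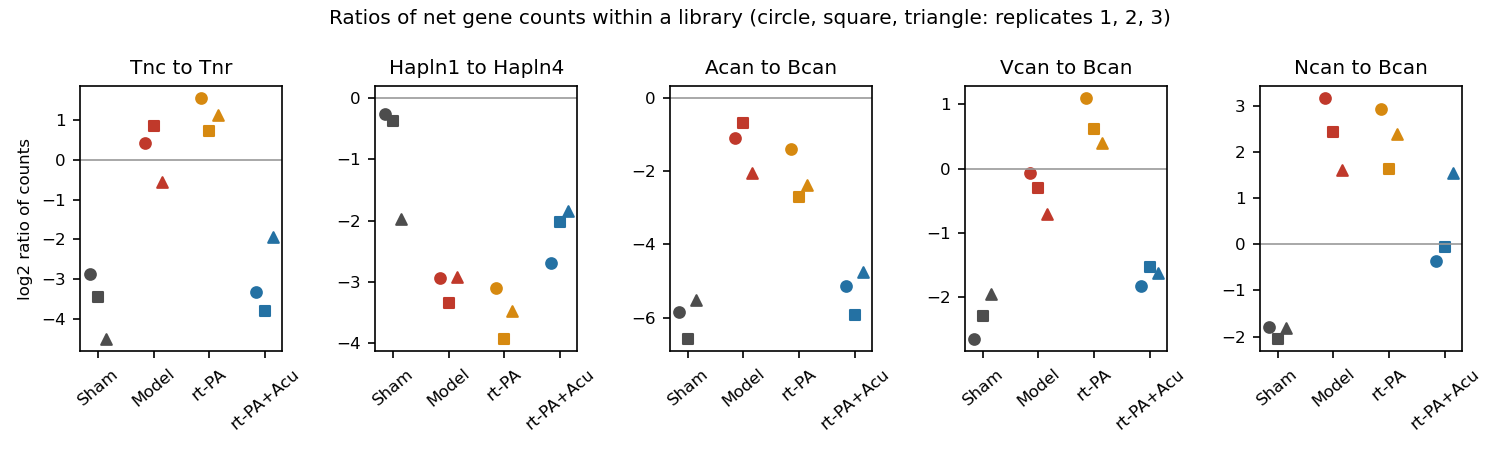
Log2 ratio of the counts of 2 net genes within each of the 12 libraries, by group, with a marker shape for each replicate number and a line at equal counts. Tnc to Tnr and Ncan to Bcan were higher in all Model and rt-PA libraries than in any Sham library, and Vcan to Bcan occupied a separate range in each group.

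Each lectican gene lies next to a link protein gene on the rat chromosome, with 0 protein-coding genes between them in RefSeq: Acan by Hapln3 on chromosome 1, Bcan by Hapln2 and Vcan by Hapln1 on chromosome 2, and Ncan by Hapln4 on chromosome 16. Neighbours did not move together in most pairs. Where Acan rose in Model, Hapln3 had 49.8, 64.6 and 49.4 CPM in Sham and 21.5, 19.6 and 20.7 CPM in Model (-1.40, SE 0.132, adjusted p = 9.36e-05). Hapln3 then had 24.5, 27.1 and 22.8 CPM in rt-PA+Acu, still below Sham (-1.14, SE 0.138, adjusted p = 0.00567), whereas Acan was at 4.63 to 9.78 CPM there.

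Ncan rose in Model while Hapln4 beside it was not called, and Hapln1 fell while Vcan beside it was not called. Hapln2, a link protein of nodes of Ranvier, lay below Sham in the mean of Model, as its neighbour Bcan did, but its Model libraries had 3.74, 8.21 and 29.2 CPM against 28.3 to 47.8 CPM in Sham, and it was not called (-1.39, SE 0.604, adjusted p = 0.0821). In rt-PA versus Sham both genes of this pair were called lower, Hapln2 at -1.67 (SE 0.524, adjusted p = 0.0273) and Bcan at -2.23. The libraries of Hapln2 were ordered within each of the 4 groups like the summed oligodendrocyte markers, which were 1672, 3796 and 8503 CPM in Model.

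**Figure D4:**
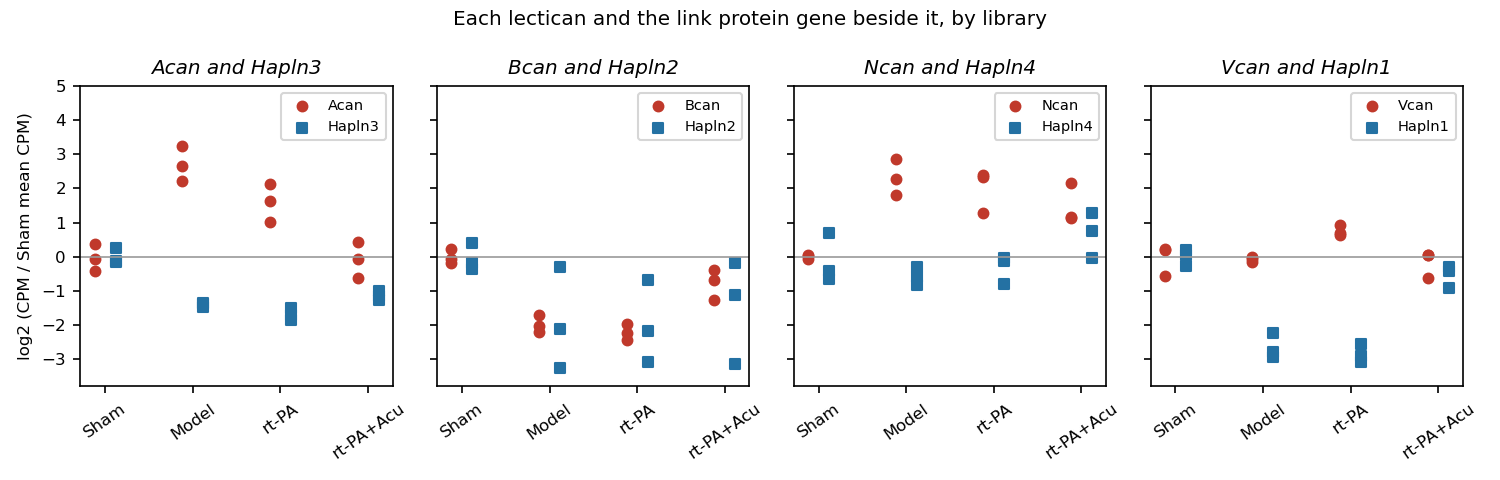
Log2 of the CPM of each library over the Sham mean for each lectican (circles) and the link protein gene next to it (squares), by group, with a line at the Sham mean. In Model, Acan and Hapln3 lay on opposite sides of the line in all 3 libraries. So did Ncan and Hapln4, but Sham replicates 1 and 2 of Hapln4 lay below the line as well, and Hapln4 was not called.

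Genes with the most similar pattern were ranked by Pearson r of log2 CPM over the 12 libraries among 12743 genes. All libraries share the differences between the groups, so a high r reflects the group pattern and is given without a test. For Bcan the 3 most alike genes were Cst3 (r = 0.994), Acsbg1 (0.993) and Adra2c (0.992). Among those most alike to Hapln1 were Cracdl (0.990) and Pitpnm2 (0.986). For Tnr the 3 most alike were Ccdc177 (0.990), Tmod2 (0.986) and Dync1i1 (0.982). These 3 net genes followed a common pattern, with 1067, 1108 and 770 genes at an r above 0.9.

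For Tnc the most alike were Trim27 (0.979), Bdkrb2 (0.972), a bradykinin receptor, and Hdac1 (0.971). For Acan they were Rgs19 (0.962), Wdr91 (0.961) and Wnt2 (0.959), and for Ncan Nol11 (0.973), Tmem161b (0.971) and Tmed7 (0.970). Vcan had 0 genes at an r above 0.9, and its most alike genes were Cd163 (0.888), a scavenger receptor of macrophages, RT1-Da (0.859), an antigen-presenting molecule, and Tnfaip1 (0.854). Hapln4 had 4 genes above 0.9, led by Pex14 (0.941), Camta1 (0.929) and Gak (0.923). Vcan and Hapln4 shared their pattern with few genes. They are also the genes that the stroke alone did not move past the call, and because r reflects the group differences these are not separate observations.

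Around the net genes, 5 of 9 hyaluronan synthases, hyaluronidases and receptors tested rose in Model versus Sham, against 9.43% of all genes, and 0 fell, with a median log2 fold change of 1.53 against 0.01 over all genes. Cd44, a hyaluronan receptor of glia and immune cells that is also on the reactive astrocyte list, rose from 6.28 to 8.64 CPM in Sham to 192 to 327 CPM in Model (5.07, adjusted p = 6.4e-06). The synthases Has2 (3.11, adjusted p = 0.000393) and Has1 (2.48, adjusted p = 0.00409) rose as well. With acupuncture added to rt-PA, 5 of 10 were lower, against 8.16% of all genes, and 0 higher, with a median of -0.99, led by Has2 (-3.16, adjusted p = 0.00268), Has1 (-2.82, adjusted p = 0.00712) and Cd44 (-2.59, adjusted p = 0.00909). Cd44 had 22.2, 25.7 and 88.4 CPM in rt-PA+Acu and was higher than in Sham (2.64, adjusted p = 0.0335).

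Enzymes that build and sulphate the chondroitin chains of lecticans moved less. Of 19 tested, 2 rose and 0 fell in Model versus Sham, with a median of 0.07: Dse, which turns chondroitin into dermatan sulphate (1.63, adjusted p = 0.000249), and the chain-extending synthase Chsy1 (1.38, adjusted p = 0.000282). The same 2 of 18 were lower in rt-PA+Acu versus rt-PA, Dse at -1.65 (adjusted p = 0.00133) and Chsy1 at -1.39 (adjusted p = 0.00978), with a median of 0.04. The share of called genes on this list stood below that of all genes in both comparisons.

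Of 12 proteases that cut lecticans and their inhibitors, 6 rose in Model versus Sham, against 9.43% of all genes, and 0 fell, with a median of 1.33. Timp1, an inhibitor of metalloproteases and also a reactive astrocyte marker, rose from 2.01 to 2.17 CPM in Sham to 141 to 315 CPM in Model (6.76, adjusted p = 7.79e-06). The metalloprotease Mmp9 (4.10, adjusted p = 5.45e-06) rose too, as did Mmp3 (adjusted p = 0.00468), which had 6, 1 and 1 counts in Sham and 87, 59 and 11 counts in Model. From rt-PA to rt-PA+Acu, 8 fell, against 8.16% of all genes, and 0 rose, with a median of -1.34. Mmp3 had 52, 31 and 59 counts in rt-PA and 2, 0 and 3 counts in rt-PA+Acu (adjusted p = 0.00331), and it is given without a fold change in both comparisons because of these low counts. Adamts9, a protease of the aggrecanase family, fell by 4.01 (adjusted p = 0.00125) and Timp1 by 3.43 (adjusted p = 0.00689), and Mmp9 (2.09, adjusted p = 0.00334) and Timp1 (3.88, adjusted p = 0.00885) were still above Sham. In Model versus Sham, Adamts9 (3.84, adjusted p = 1.74e-05), Adamts1 (3.58, adjusted p = 4.82e-06) and Adamts8 (1.94, adjusted p = 0.00185) were called higher. The aggrecanases Adamts4 (0.72, adjusted p = 0.0648) and Adamts5 (-0.10, adjusted p = 0.789) were not called, and nor was Adamts15 (0.10, adjusted p = 0.768). Apart from Adamts9, these Adamts genes were named after their values were seen.

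Of 9 receptors and ligands that bind the net or its chains, 1 rose and 1 fell in Model versus Sham, a share near the 21.5% called over all genes. Nptx2, a secreted synaptic pentraxin found in nets, had 62.9 to 87.6 CPM in Sham and 1200 to 1366 CPM in Model (4.14, adjusted p = 3.41e-06). Rtn4r, a Nogo receptor that also binds chondroitin sulphate, fell from 43.0 to 50.5 CPM to 11.0 to 20.6 CPM (-1.56, adjusted p = 0.000461). Relative to rt-PA, Nptx2 was lower in rt-PA+Acu (-2.75, adjusted p = 0.00153) and Rtn4r higher (1.59, adjusted p = 0.00361), and the other 7 were not called. No gene of these 4 lists was called in rt-PA versus Model. The receptor gene Ptprz1 was not analysed here.

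**Figure D5:**
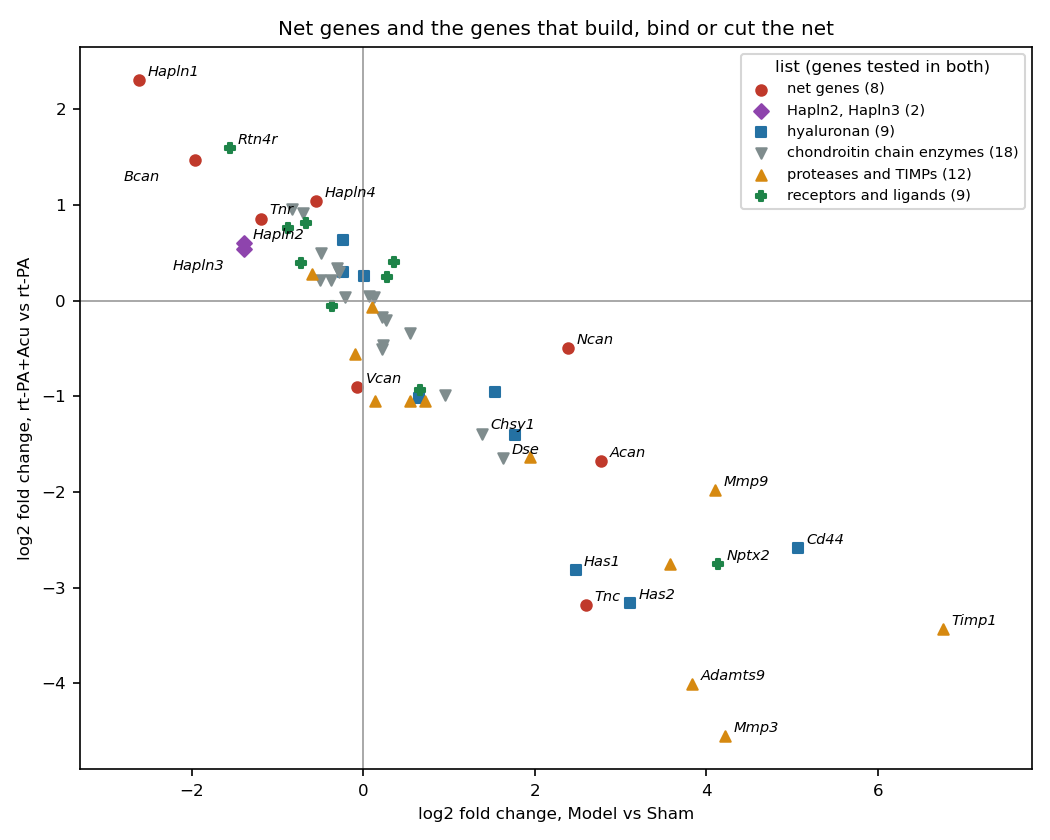
Log2 fold change in Model versus Sham (x) and in rt-PA+Acu versus rt-PA (y) for the net genes, the link genes Hapln2 and Hapln3, and 4 lists of genes that build, bind or cut the net. The axes share no library, and Hapln1 and Bcan lie at the upper left and Tnc, Has2, Mmp9 and Timp1 at the lower right, with the fitted value of Mmp3 resting on at most 6 counts per Sham library and at most 3 per rt-PA+Acu library.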

How the data were processed

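The authors deposited raw counts, whole numbers for each gene symbol and library that were not normalized. Reads of 150 bases were aligned with STAR 2.7.10a, and the submitters' processing notes also name Salmon 1.9.0, featureCounts 2.0.1 and the build mRatBN7.2. The adapters carried molecular identifiers, and their use in counting is not given in the sources used here. Libraries were grouped by their labels, and no pair of libraries of the same group was alike within sampling noise. Pairs from different groups were not checked. Groups were compared in pairs, with a fit over the 6 libraries concerned, in R 4.3.3 with edgeR 4.0.16 (TMM, filterByExpr, quasi-likelihood test), and the SE was the log2 fold change over the root of F. DESeq2 1.42.0, other scalings, filters, a replicate block, 1 fit over 12 libraries, a term for a library split noticed in earlier results and leaving out each library were alternatives. Named genes were the 8 net genes, per list the 3 with the largest called change in Model versus Sham and in rt-PA+Acu versus rt-PA, and the 3 most alike by r among genes with a mean of at least 1 CPM, at a prior count of 2. The members and lists were chosen with earlier results of these data known. Promoters came from RefSeq (GRCr8). Pvalb, Ptprz1, Serpina3n, Flt1 and Slco1a4 were not analysed here. One gene that the rule on likeness names is not reported here.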

Additional observations from a re-analysis of the deposited data

How the results depend on the processing

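Model versus Sham called 6 net genes under all 15 alternatives, which include the adjusted p without a fold threshold. The 23 called results of a single net gene were fitted 322 more times, of which 305 kept the call, 17 lost it and 0 changed sign. The 25 results not called were fitted 350 more times, of which 9 became called and 17 changed sign. In rt-PA versus Model, DESeq2 called 2 net genes and 82 genes in all, the fit over 12 libraries called 2 genes, the library split term 17, and leaving out 1 library 0 to 3. For rt-PA+Acu versus Sham, the split term called 0 net genes and 4 genes, DESeq2 426 genes, and leaving out 1 library gave 0 to 1 net genes and 82 to 359 genes. In rt-PA versus Sham, the split term called 3 net genes and 1417 genes. The split term is set within Model, by replicate 3 against replicates 1 and 2, so its counts against Sham rest on 1 library. The cause of these differences was not tested.

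With library size alone, Vcan in Model versus Sham took 0.0024 and Acan in rt-PA+Acu versus Sham 0.0126. With the split term, Hapln1 was at 0.0342 in rt-PA versus Model and 0.11 in rt-PA+Acu versus Sham, where Tnr was at 0.19, Tnc at -0.49 and Acan at -0.79 (adjusted p = 0.773, its furthest move), and Hapln4 was at 0.12 in rt-PA versus Sham. Leaving out 1 library gave -0.296 to 0.0561 for Vcan in Model versus Sham, -0.524 to 0.017 for Ncan and -0.383 to 0.0301 for Hapln1 in rt-PA versus Model, and -0.55 to 0.22 for Hapln4 in rt-PA versus Sham. In rt-PA+Acu versus Sham it gave -0.31 to 0.21 for Acan, -0.365 to 0.0442 for Vcan and -0.16 to 0.12 for Tnr, and in rt-PA+Acu versus Model -0.18 to 0.13 for Vcan.

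Libraries with the same replicate number correlated at -0.271 to 0.153 in their deviations from the group means, so the numbers were not taken as pairs. With the replicate block, the net genes called were 6 in Model versus Sham, 0 in rt-PA versus Model, 4 in rt-PA+Acu versus rt-PA, 1 in rt-PA+Acu versus Sham, 5 in rt-PA versus Sham and 5 in rt-PA+Acu versus Model, where Hapln4 (1.23, adjusted p = 0.0618) was not called. Mmp3, at 0 to 3 counts in rt-PA+Acu libraries, is a gene whose fold change this depth does not fix.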
